A study of Mus musculus with 12 samples.

Results

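The mitochondrial ribosomal protein genes were the genes whose symbol begins with Mrpl or Mrps followed by a number, and 79 of the 17007 rows of the deposited expression values met this rule. The rule reads gene names alone. RNA had been sequenced in 12 libraries from normal liver or liver tumors, 3 in each of 4 groups. The labels give replicate numbers, and a separate mouse for each library is not stated. The normal livers came from C57BL/6 wild-type mice without plasmid injection or drug in the labels. The 3 tumor groups were c-MYC/MCL1/Rictor KO Tsc2 KO hepatocellular carcinomas (HCCs), made by hydrodynamic tail vein injection of c-MYC, MCL1 and Cre plasmids into mice carrying Rictor fl/fl and Tsc2 fl/fl, so that every tumor group carried both oncogenes and both deletions. Cre was driven by the CMV promoter, which is not specific to one cell type, although this kind of injection reaches mainly hepatocytes. Tumor-bearing mice received vehicle, MLN0128 or everolimus by gavage, the drugs at 1 mg/kg per day on 6 days a week for 3 weeks from day 6 after injection, and were sacrificed at 3.7 weeks. MLN0128 blocks the kinase activity of mTOR, whereas everolimus, a relative of rapamycin, inhibits mTORC1. The study's results text gives 3 days of treatment in place of 3 weeks. Mouse ages were not given in the sources used here.

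The mitochondrial ribosome is the machine inside mitochondria that translates the few proteins encoded by mitochondrial DNA, all of them subunits of the respiratory chain and the ATP synthase. Its ribosomal RNAs come from mitochondrial DNA, whereas all of its proteins are encoded in the nucleus, made in the cytosol and imported. Some of these proteins descend from those of the bacterial ribosome and others were added during the evolution of mitochondria. Both c-MYC and mTOR are known regulators of genes for mitochondrial function and of cytosolic translation.

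Of the 79 genes, 50 encode proteins of the large subunit and 26 of the small subunit. By ancestry, 46 of these 76 are counterparts of bacterial ribosomal proteins and 30 are specific to mitochondria. Despite their symbols, Mrps18a and Mrps30 belong to the large subunit and were counted there. Mrps36 is now known as a subunit of the oxoglutarate dehydrogenase complex and no ribosomal protein. Mrpl23-ps1 and Mrpl48-ps are processed pseudogenes, whose reads can be shared with their parent genes Mrpl23 and Mrpl48. The 79 genes lay on 17 chromosomes.

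The values were FPKM as deposited, that is, fragments per kilobase of exon relative to library depth, with a further factor per library described below. Differences were tested with limma on log2(FPKM + 1) over the 14397 genes that reached 0.5 FPKM in 3 or more libraries, and differences below are on this scale, which understates the change of low genes. All 79 genes passed this filter. A gene was called higher or lower at a Benjamini-Hochberg adjusted P under 0.05 over all tested genes, and called past 1.5-fold by limma's treat test at the same level. Depth was similar among libraries, with 17165246 to 25179054 reads recovered from the FPKM and the exon lengths, and between 4 and 4674 of these fell on a single member in a library. Hepatocyte marker RNA (6 genes, such as Alb and Ttr) summed to between 81407 and 100548 FPKM in normal livers and between 1968 and 8300 FPKM in the tumors. The oncofetal markers Afp, H19 and Gpc3 together reached 3171 to 8000 FPKM in tumors against at most 4.40 FPKM in normal livers. MLN0128 replicates 1 and 2 held Xist RNA (191 and 155 FPKM) and 0 FPKM of Y-linked genes, whereas MLN0128 replicate 3 and the other 9 libraries had at most 0.0699 FPKM of Xist and 20.3 to 97.0 FPKM of Y-linked genes, so MLN0128 and the sex of the mice were partly confounded.

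The genes differed widely in level. Averaged over the 12 libraries, the highest were Mrpl34 (123 FPKM), Mrpl12 (91.0 FPKM), Mrpl2 (68.4 FPKM), Mrpl50 (64.0 FPKM) and Mrps28 (56.9 FPKM). Mrpl12 forms the stalk that recruits elongation factors to the large subunit, while Mrpl2 is a core protein of that subunit with a bacterial counterpart. The lowest were the pseudogenes Mrpl23-ps1 (0.710 FPKM) and Mrpl48-ps (0.806 FPKM), followed by Mrpl33 (3.50 FPKM), Mrps25 (4.09 FPKM) and Mrpl48 (5.04 FPKM). The median member stood at 18.6 FPKM. Within a library, members ranked high among tested genes, with the median member between the 79.8th and the 80.9th percentile in normal livers and between the 80.8th and the 84.4th in tumors.

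The first comparison, of vehicle-treated tumors with normal livers, asked how the transcripts of the mitochondrial ribosome differ once a tumor has formed. On the deposited scale the called genes were split between both directions, whereas plain library totals or equal FPKM sums, given in the next paragraph, put nearly all of them higher in tumors. As deposited, 22 of 79 genes were higher in tumors, against 36.0% of all tested genes, and 24 were lower, against 33.0% (limma's moderated test). The median difference was -0.03, and that of all tested genes was 0.06. Members spread less than genes in general, with quartiles of -0.43 and 0.41 against -0.62 and 0.67. In all, 8 members passed the 1.5-fold test, 5 of them higher and 3 lower, against 32.7% of all tested genes. In 25 members all 3 tumors lay above all 3 normal livers (39.0% of all tested genes did so), and in 25 all 3 lay below (35.1%). Since the libraries came from bulk tissue, fewer cells of a type and less RNA per cell cannot be told apart here.

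The split between higher and lower members depended on the scaling between libraries. The deposited FPKM carried factors, beyond library totals, of 0.585 to 0.596 in normal livers and 1.12 to 1.15 with vehicle. They were 1.16 to 1.37 with MLN0128 and 1.10 to 1.20 with everolimus, and a larger factor lowers the deposited FPKM. With plain library totals 64 members were higher and 1 was lower, against 61.3% and 15.2% of all tested genes, and the members' median was 0.84 with all genes at 0.63. With equal FPKM sums 71 were higher and 0 lower, with medians of 1.06 and 0.78, and all genes shifted by 0.72 relative to the deposited scale. With equal medians 15 were higher and 27 lower. Directions given below for this comparison are on the deposited scale unless another is named.

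**Figure D1:**
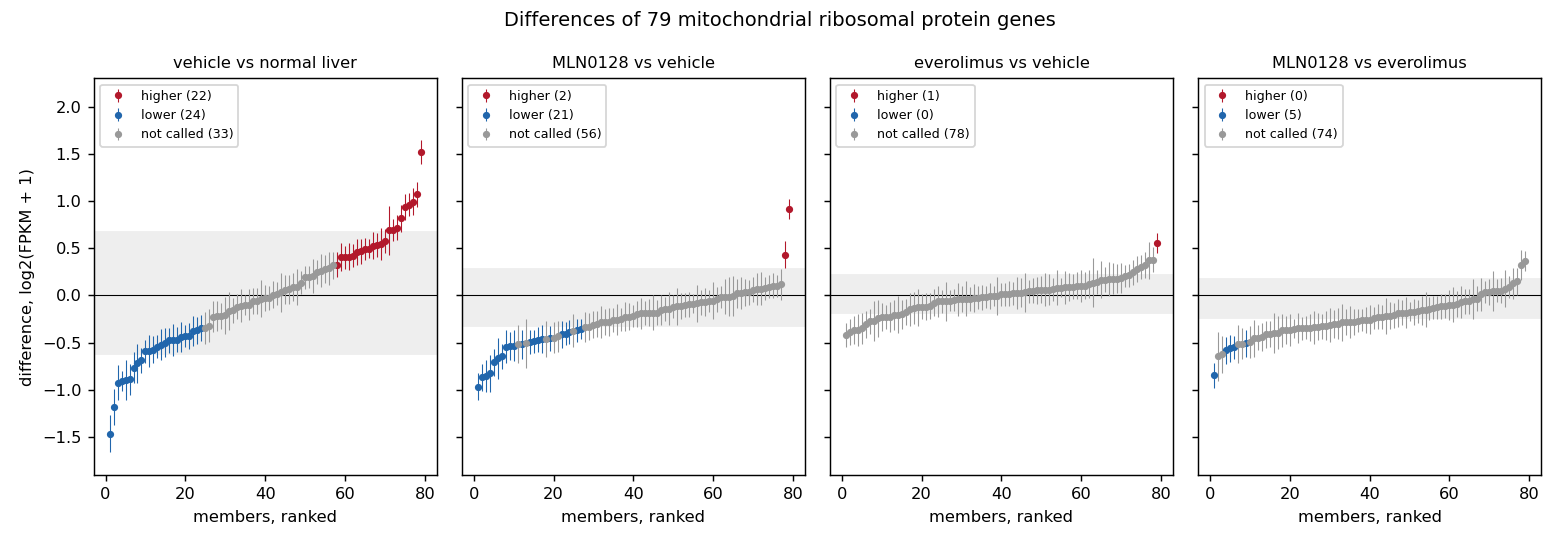
Differences on the log2(FPKM + 1) scale for the 79 genes in 4 comparisons, ranked from lowest to highest within each panel, with standard errors. Red points were called higher, blue points lower and grey points neither (limma, adjusted P under 0.05), and the grey band spans the quartiles of all tested genes. On this deposited scale the first panel spreads in both directions, the second leans below 0 with 21 genes lower and 2 higher, and the third has 1 called gene.

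Mrpl19, a large-subunit protein with a bacterial counterpart, rose most. Its levels were 3.11, 3.49 and 3.64 FPKM in normal livers and 11, 13.6 and 10.5 FPKM in vehicle-treated tumors. All tumors lay above all normal livers, and the difference was 1.52 ± 0.13 (SE, adjusted P = 1.22e-06). The gene Mrpl19 spans chr6:81957851-81965958 on the minus strand (GRCm38), and 36.0% of its exon bases are also exon bases of Gcfc2 on the other strand. Gcfc2 itself stood at 0.591, 0.532 and 0.855 FPKM in normal livers and at 1.02, 1.46 and 0.870 FPKM in vehicle-treated tumors, a difference of 0.35 (adjusted P = 0.031), and reads of the pair cannot be told apart without strand.

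The other members higher by the 1.5-fold test were Mrps26, Mrpl4, Mrpl45 and Mrps30. Mrps26, a small-subunit protein without bacterial counterpart, went from 8.30, 9.18 and 7.12 FPKM to 19.8, 17.9 and 17.1 FPKM (difference 1.07 ± 0.13, adjusted P = 1.79e-05). Mrpl4 went from 13.2, 15.7 and 13.5 FPKM to 29.9, 28.8 and 28.6 FPKM (difference 1.00 ± 0.14). Mrpl45, which lies at the tunnel exit and holds the ribosome to the inner membrane, went from 16.5, 16.6 and 14.4 FPKM to 32.3, 32.8 and 30.0 FPKM (difference 0.96 ± 0.12). For all 4 genes the 3 tumors exceeded the 3 normal livers, as they did for Mrps30 at 7.17 to 9.29 FPKM against 3.59 to 4.26 FPKM. Mrps23, of the small subunit, was the next highest at 0.82 ± 0.15 and passed the moderated test but not the 1.5-fold test.

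Mrpl14 fell most. This large-subunit protein, which the assembly factor MALSU1 binds at the subunit interface, stood at 87.1, 89.2 and 67.9 FPKM in normal livers and at 33.9, 21.3 and 32.6 FPKM in vehicle-treated tumors. The difference was -1.46 ± 0.20 (adjusted P = 4.15e-05), and the groups did not overlap. Malsu1 transcripts were lower on the deposited scale, at 7.01, 4.97 and 5.33 FPKM in tumors against 11.4, 11.7 and 10.3 FPKM in normal livers (difference -0.85, adjusted P = 0.00019), and differed by -0.02 with plain totals and by 0.21 with equal sums. Mrps18c, one of 3 related genes described below, went from 31.1, 29.0 and 41.8 FPKM to 17.0, 15.7 and 10.8 FPKM (difference -1.18 ± 0.19, adjusted P = 0.00019). Mrpl24, of the large subunit, went from 32.4, 33.1 and 34.1 FPKM to 17.8, 17.6 and 16.4 FPKM (difference -0.91 ± 0.11, adjusted P = 1.34e-05). Mrps33 (-0.92 ± 0.18), Mrpl41 (-0.90 ± 0.21) and Mrpl27 (-0.89 ± 0.16) were of similar size and were lower by the moderated test alone. This held on the deposited scale, and with equal FPKM sums the same 3 genes stood at 0.20, 0.28 and 0.29.

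**Figure D2:**
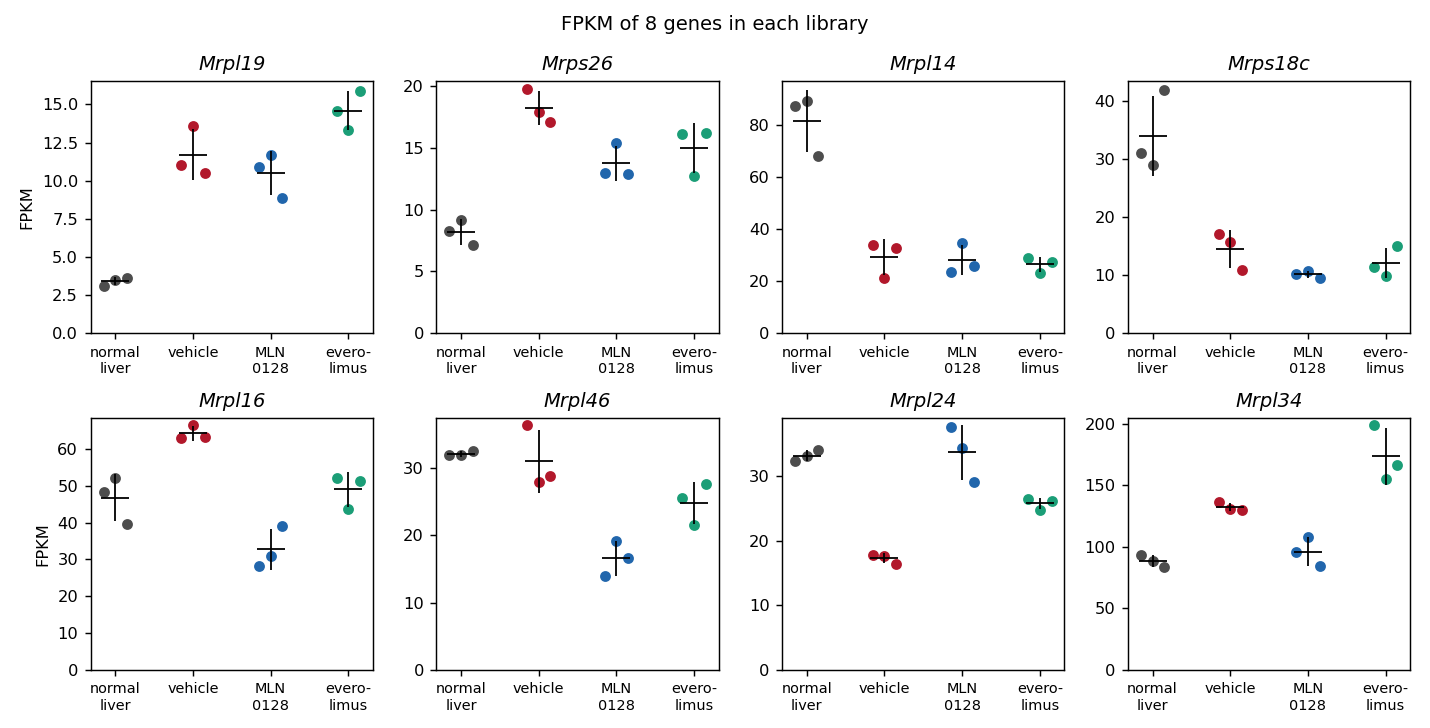
FPKM of 8 genes in each of the 12 libraries, with the mean and SD of each group in black and a vertical axis from 0. In deposited FPKM, Mrpl19 and Mrps26 lie higher and Mrpl14 and Mrps18c lower in all vehicle-treated tumors than in all normal livers, Mrpl16 and Mrpl46 lie lower with MLN0128 than with vehicle, Mrpl24 lies higher with either drug than with vehicle, and Mrpl34 is separated between the drugs.

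On the deposited scale both subunits and both ancestries held higher and lower genes. Of all tested genes 36.0% were higher and 33.0% lower. Of the large-subunit genes 14 were higher and 17 lower (28% and 34%, median difference -0.06). Of the small-subunit genes 7 were higher and 6 lower (26.9% and 23.1%, median 0.04). Bacterial counterparts counted 9 higher and 14 lower (19.6% and 30.4%, median -0.05). Mitochondria-specific genes counted 12 higher and 9 lower (40% and 30%, median 0.14). Differences between these classes were not tested.

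Mammals have 3 relatives of the bacterial protein S18. Mrps18b was higher in tumors (9.85, 10.6 and 9.22 FPKM in normal livers and 18.3, 16.7 and 14.9 FPKM in vehicle-treated tumors, difference 0.69 ± 0.11). Mrps18a was also higher (10.8, 9.36 and 7.04 FPKM against 13.7, 12.3 and 14.1 FPKM, difference 0.53 ± 0.14), and both were higher under each scaling. Mrps18c was lower as given above, at -0.28 with plain totals and -0.03 with equal sums, where it was not called. On the stalk and its base, Mrpl10 (difference -0.10), Mrpl11 (-0.22) and Mrpl12 (-0.16) were not called on the deposited scale. Mrps12, which sits in the decoding center, differed by -0.04 (adjusted P = 0.88). Mrpl58, a peptidyl-tRNA hydrolase built into the large subunit that frees stalled ribosomes, was lower at 12.3, 8.23 and 9.57 FPKM against 13.7, 13.6 and 11.4 FPKM (difference -0.35, adjusted P = 0.045), but was higher with plain totals (0.51, adjusted P = 0.0084) and with equal sums (0.74, adjusted P = 0.0014), and 1 tumor lay within the range of the normal livers. Mrps36 was higher (difference 0.69 ± 0.26, adjusted P = 0.031).

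Single genes were affected unequally by the scaling. Mrpl14 was the 1 member lower with plain totals (-0.54, adjusted P = 0.018), and at equal sums it stood at -0.29 (adjusted P = 0.17). Mrpl24 stood at -0.01 with plain totals and at 0.24 with equal sums. Mrpl19 was higher under each of these scalings, from 1.40 to 2.42, as were Mrps26 (0.94 to 2.12), Mrpl4 (0.86 to 2.10), Mrpl45 (0.82 to 2.07) and Mrps30 (0.81 to 1.86).

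As a share of all reads recovered, which no such factor enters, the 79 genes took 0.269%, 0.263% and 0.249% in normal livers and 0.537%, 0.483% and 0.482% in vehicle-treated tumors. The tumors thus all lay above the normal livers in share, whereas the summed FPKM did not separate them, at 2250, 2198 and 2105 against 2255, 1955 and 1963. A share also depends on the reads that other genes take. The 6 hepatocyte markers summed to 81407 to 100548 FPKM in normal livers and 4315 to 6559 FPKM with vehicle, and their part in the shares was not tested. Shares with MLN0128 were 0.436%, 0.479% and 0.475%, and with everolimus 0.529%, 0.452% and 0.527%. These shares overlapped those with vehicle for everolimus, while every MLN0128 library lay below every vehicle library, by as little as 0.479% against 0.482%.

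**Figure D3:**
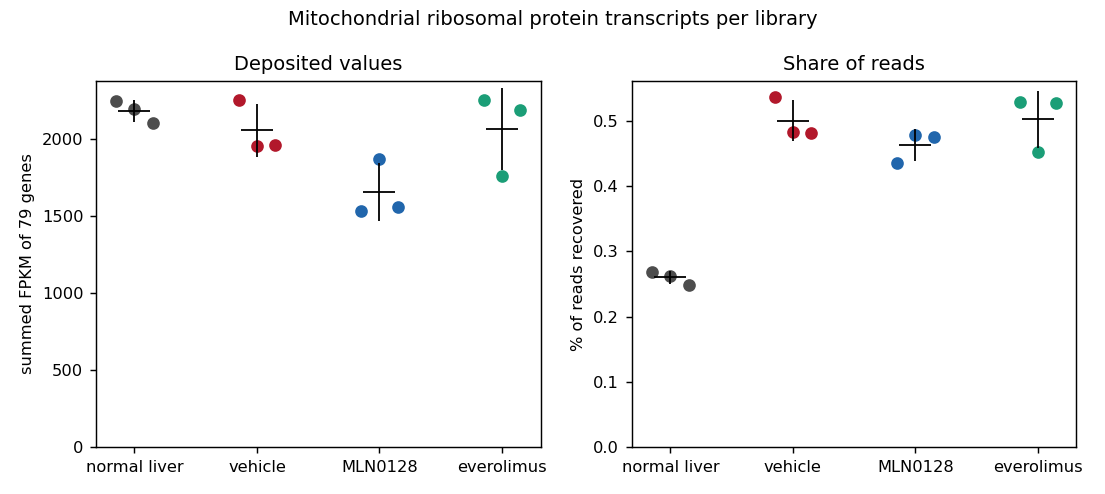
Summed FPKM of the 79 genes (left) and their percentage of the recovered reads (right) in each library, with group mean and SD in black and axes from 0. Normal livers and vehicle-treated tumors overlap in summed FPKM, at 2105 to 2250 and 1955 to 2255, and are separated in read share, at 0.249% to 0.269% and 0.482% to 0.537%.

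**Figure D4:**
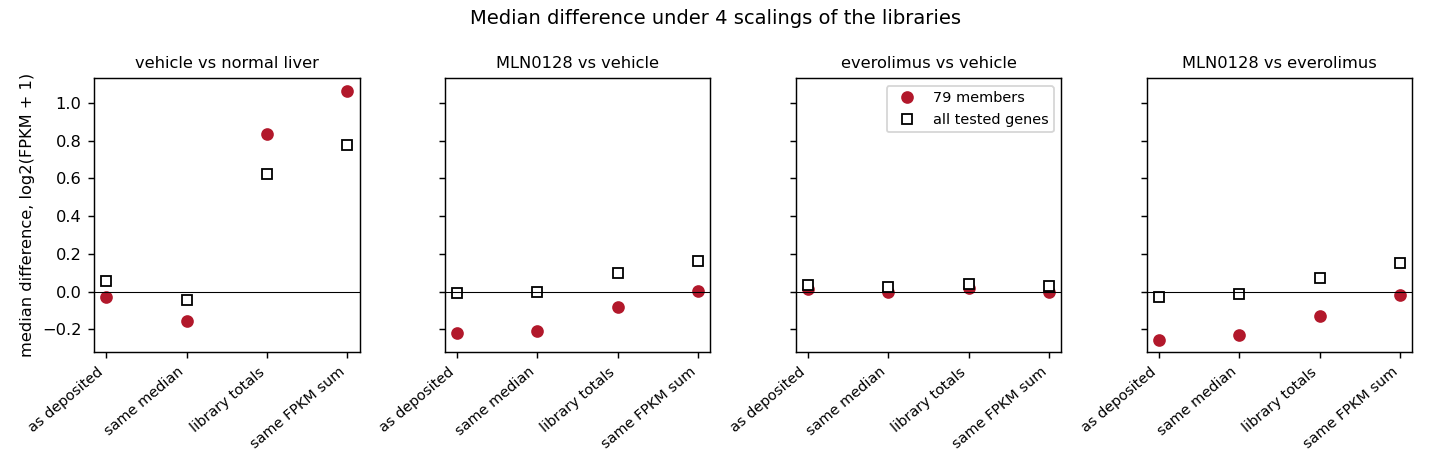
Median difference of the 79 genes (red circles) and of all tested genes (open squares) on the log2(FPKM + 1) scale under 4 scalings of the libraries. For vehicle-treated tumors against normal livers the members' median moves from -0.03 as deposited to 1.06 with equal FPKM sums, and for MLN0128 against vehicle it moves from -0.22 to 0.00, staying below the median of all genes.

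MLN0128 was compared with vehicle to ask which of these transcripts differ in tumors of mice given an mTOR kinase inhibitor. Nearly all called members were lower. Of the 79 genes 21 were lower with MLN0128, against 17.1% of all tested genes, and 2 were higher, against 14.9%. The median difference was -0.22 (all tested genes -0.01), and 65 of 79 genes had a negative difference. In 31 members all 3 MLN0128 tumors lay below all 3 vehicle tumors (23.4% of all tested genes did so) and in 3 they lay above (22.1%). By the 1.5-fold test 0 members were called (2.13% of all tested genes were), and with plain totals or equal sums Mrpl24 alone was.

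Mrpl16 fell most. This large-subunit protein with a bacterial counterpart stood at 63.0, 66.6 and 63.3 FPKM with vehicle and at 28.2, 31.0 and 39.0 FPKM with MLN0128 (difference -0.97 ± 0.14, adjusted P = 0.00070). Mrpl46 went from 36.4, 27.9 and 28.8 FPKM to 14, 19.1 and 16.6 FPKM (difference -0.87 ± 0.14, adjusted P = 0.0012). Mrps6, of the small subunit, went from 10.1, 8.42 and 10.1 FPKM to 4.96, 5.36 and 4.17 FPKM (difference -0.86 ± 0.17, adjusted P = 0.0032). In each of the 3 genes every treated tumor lay below every vehicle tumor. Mrpl20 (-0.83 ± 0.19), Mrps18a (-0.71 ± 0.14), Mrpl41 (-0.67 ± 0.21) and Mrpl40 (-0.65 ± 0.13) followed, all lower by the moderated test and without overlap. Mrps11, a small-subunit protein, went from 15, 10.8 and 11.8 FPKM to 7.49, 10.3 and 7.62 FPKM (difference -0.52 ± 0.15, adjusted P = 0.024).

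By subunit, 16 of 50 large-subunit genes were lower and 1 was higher (median -0.24). Of the 26 small-subunit genes 5 were lower (19.2%, near the 17.1% of all tested genes) and 1 was higher (median -0.19). By ancestry, 12 of 46 bacterial counterparts (26.1%, median -0.24) and 9 of 30 mitochondria-specific genes (median -0.19) were lower, and differences between these classes were not tested. Mrpl10, the base of the stalk, was lower (31.6, 31.4 and 32.3 FPKM with vehicle, 23.5, 22.7 and 27.9 FPKM with MLN0128, difference -0.36, adjusted P = 0.021). With plain totals it stood at -0.21 and was not called. Mrpl12 of the stalk missed the threshold, at 117, 82.9 and 86.9 FPKM with vehicle and 56.7, 88.9 and 56.3 FPKM with MLN0128 (difference -0.52, adjusted P = 0.072). Mrps18b and Mrps12 differed by -0.02 and -0.08 (adjusted P = 0.93 and 0.78).

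Mrpl24 rose. It stood at 17.8, 17.6 and 16.4 FPKM with vehicle and at 37.6, 34.4 and 29.1 FPKM with MLN0128, where the normal livers had 32.4, 33.1 and 34.1 FPKM on the deposited scale. With plain totals Mrpl24 differed by -0.01 between vehicle and normal liver and by 1.07 between MLN0128 and vehicle. All treated tumors lay above all vehicle tumors (difference 0.92 ± 0.11, adjusted P = 0.00022), and the difference was positive under every scaling, from 0.92 to 1.16. Of the exon bases of Mrpl24 (chr3:87919506-87923672, plus strand, GRCm38) 26.3% are shared with Rrnad1 on the other strand. Rrnad1 had 2.72, 3.13 and 1.95 FPKM with vehicle and 4.67, 4.71 and 3.67 FPKM with MLN0128 (difference 0.58, adjusted P = 0.011), whereas against normal liver the pair had differences of -0.91 and 0.28. The other member called higher was Mrps2, at 17.6, 16.3 and 18.7 FPKM with vehicle and 23.9, 26.1 and 22.1 FPKM with MLN0128 (difference 0.43 ± 0.14, adjusted P = 0.035).

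How many members were lower rested on single libraries. Without MLN0128 replicate 1, whose members summed to the lowest value of the 12 libraries, 6 were lower, and without vehicle replicate 1, the highest of its group, 7 were. Without MLN0128 replicate 3 the count was 12, and without vehicle replicate 3 it was 14. A term for the X and Y content of the libraries is fitted by MLN0128 replicates 1 and 2 alone. The MLN0128 estimate then rests on replicate 3, 1 library against 3, so no calls are given with this term. The median difference was then -0.32 and 72 of 79 differences were negative. With equal FPKM sums 6 were lower (7.59%, against 9.16% of all tested genes). The median was then 0.00, with all genes at 0.16. Mrpl16, Mrpl20, Mrpl40, Mrpl46, Mrps18a and Mrps6 were the 6 both without MLN0128 replicate 1 and with equal FPKM sums. Among the markers, 3 of 6 hepatocyte genes were lower and 1 was higher with MLN0128 (summed 1968 to 4557 FPKM against 4315 to 6559 FPKM with vehicle), both tested biliary genes were lower with either drug, 1 of 5 macrophage genes was lower (14.2 to 24.9 FPKM against 37.5 to 59.8 FPKM), and the 2 proliferation genes were not called. Of the tumor markers Afp, H19 and Gpc3, 2 of 3 were lower with MLN0128 than with vehicle (summed 3171 to 6481 FPKM against 5412 to 7319 FPKM) and 1 of 3 was lower than with everolimus. No listed marker was at 0 throughout a group, and their part in the result was not tested.

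Members with shorter exons tended to lie lower in the comparisons of MLN0128. Across the 79 genes, which are not independent and share the same libraries, the difference and the exon length had a Spearman correlation of 0.35 for MLN0128 against vehicle, 0.36 for MLN0128 against everolimus, 0.24 for tumor against normal liver and 0.10 for everolimus against vehicle. Across all genes with a length the values were 0.04, -0.04, 0.08 and 0.09. RNA quality and fragment size were not given in the sources used here, and the part of length in the result was not tested.

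Everolimus was compared with vehicle to ask whether the same transcripts follow inhibition of mTORC1 by a rapamycin analog. Here 1 member was higher, against 3.78% of all tested genes, and 0 were lower, against 6.05%, with 4 higher and 3 lower at an unadjusted P under 0.05. The median difference was 0.01 (all tested genes 0.03), members ranged from -0.42 to 0.55, and 0 passed the 1.5-fold test (0.604% of all tested genes did). The member called was again Mrpl24, at 26.5, 24.8 and 26.1 FPKM against 17.8, 17.6 and 16.4 FPKM (difference 0.55 ± 0.11, adjusted P = 0.0086), while Rrnad1 differed by 0.47 (adjusted P = 0.060). The lowest were Mrpl40 (-0.42 ± 0.13, adjusted P = 0.064), Mrpl16 (-0.39 ± 0.14, adjusted P = 0.11), Mrps18a (-0.37 ± 0.14, adjusted P = 0.13) and Mrps6 (-0.36 ± 0.17, adjusted P = 0.19). The highest after Mrpl24 were Mrpl34 (0.38 ± 0.13, adjusted P = 0.089), Mrps12 (0.37, adjusted P = 0.25) and Mrps27 (0.32 ± 0.14, adjusted P = 0.17). The comparisons of each drug with vehicle and of tumor with normal liver share the vehicle libraries.

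The drugs were then compared directly. Against everolimus, 5 members were lower with MLN0128 (5.54% of all tested genes were) and 0 were higher (3.99%), with 1 higher and 25 lower at an unadjusted P under 0.05, and 0 passed the 1.5-fold test (0.0417%). By voom on the recovered reads 8 were lower and 1 was higher. The median difference was -0.25 (all tested genes -0.03), and 67 of 79 differences were negative. Mrpl34, a small protein of the large subunit and the most abundant member, differed most, with 95.6, 108 and 84.3 FPKM with MLN0128 and 199, 155 and 166 FPKM with everolimus (difference -0.85 ± 0.13, adjusted P = 0.0077). Vehicle tumors lay between them at 136, 131 and 130 FPKM. Mrpl16 (-0.58 ± 0.14), Mrpl46 (-0.56 ± 0.14), Mrpl55 (-0.55 ± 0.12) and Mrps27 (-0.51 ± 0.14) were the other 4, each without overlap between the drugs. The count of lower members was 1 without MLN0128 replicate 1, without everolimus replicate 1 or without everolimus replicate 3, and 11 without everolimus replicate 2. With only the libraries of both drugs in the model it was 0. With X and Y content as a term, where MLN0128 replicate 3 alone enters the estimate, Mrpl34 differed by -1.02.

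Other genes that serve mitochondrial translation were counted from lists, and their counts against normal liver depended on the scaling as those of the members did. Of 5 ribosomal proteins with other symbols, 2 were higher and 1 lower on the deposited scale, against 36.0% and 33.0% of all tested genes. With plain totals 4 were higher and 0 lower, against 61.3% and 15.2%. With equal sums 5 were higher, against 66.0%. Ptcd3, a pentatricopeptide-repeat protein of the small subunit, was higher with vehicle than in normal liver (24.6, 28.3 and 24.2 FPKM against 10.7, 11 and 12.3 FPKM, difference 1.11 ± 0.13), as was Dap3, a GTP-binding protein of the same subunit (14.4, 14 and 13.2 FPKM against 8.67, 8.20 and 9.02 FPKM, difference 0.63 ± 0.11). Aurkaip1, also of the small subunit, was lower (52.8, 51.5 and 45 FPKM against 97.6, 85.0 and 93.2 FPKM, difference -0.87 ± 0.14) on the deposited scale, and stood at 0.05 with plain totals and 0.31 with equal sums. Chchd1 (-0.06) and Gadd45gip1 (0.07) were not called as deposited. With MLN0128, 0 of these 5 genes were called against vehicle, and their differences ran from -0.27 to 0.19.

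Of 23 assembly factors and enzymes that modify ribosomal RNA, 12 were higher and 8 lower in tumors than in normal liver on the deposited scale (median 0.39), where 36.0% and 33.0% of all tested genes were. With plain totals 19 were higher and 1 was lower (median 1.09), against 61.3% and 15.2% of all. With equal sums the counts were again 19 and 1, against 66.0% and 11.7%. Rpusd4, a pseudouridine synthase of the mitochondrial large ribosomal RNA, was at 12.9, 13.5 and 12 FPKM against 3.22, 3.36 and 2.93 FPKM (difference 1.73), and the GTPase Noa1 at 17.6, 14.4 and 18.7 FPKM against 4.76, 5.24 and 3.97 FPKM (difference 1.66). Trmt2b was lowest (difference -1.42) and was lower under each scaling. With MLN0128 against vehicle 8 of the 23 were higher and 3 lower (median 0.17), against 14.9% and 17.1% of all tested genes. With equal sums 14 were higher and 0 lower, against 25.4% and 9.16%. Mrm1, a methyltransferase of the large ribosomal RNA, was highest (0.89, adjusted P = 0.0016), and the helicase Ddx28 lowest (-0.64, adjusted P = 0.010). With X and Y content as a term, resting on MLN0128 replicate 3 alone, the median of the 23 was 0.12.

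Of 17 mitochondrial aminoacyl-tRNA synthetases, which charge the tRNAs used in mitochondria, 9 were higher and 2 lower in vehicle-treated tumors (median 0.29). Of all tested genes 36.0% and 33.0% were. With plain totals the counts were 14 and 0, against 61.3% and 15.2%. The synthetases were led by Mars2 at 5.12, 5.80 and 5.04 FPKM against 0.887, 0.827 and 0.687 FPKM (difference 1.81). With MLN0128 5 were higher than with vehicle and 0 lower (median 0.25), against 14.9% and 17.1% of all tested genes. With plain totals 10 were higher, against 23.1%. With X and Y content as a term, MLN0128 replicate 3 alone gave a median of 0.18. Among 14 translation factors 4 were higher and 5 lower in tumors (median -0.06) as deposited, and 10 and 0 with plain totals (median 0.76). With equal sums 13 and 0 were (median 0.99), against 66.0% and 11.7% of all tested genes. As deposited, the elongation factor pair Tsfm (0.79) and Tufm (0.67) was among the highest of the 14. With MLN0128 0 were higher and 2 lower than with vehicle (median 0.14), namely the elongation factor Gfm1 (-0.41, adjusted P = 0.032) and Taco1 (-0.45, adjusted P = 0.036), an activator of translation of a cytochrome oxidase subunit. Neither call held with plain totals (2 higher and 0 lower, against 23.1% and 12.7% of all tested genes). Neither held with equal sums (6 higher and 0 lower, against 25.4% and 9.16%). The median from MLN0128 replicate 3 alone, with X and Y content as a term, was -0.08.

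Of 10 genes of mitochondrial transcription and DNA maintenance, 4 were higher and 1 lower in vehicle-treated tumors, against 36.0% and 33.0% of all tested genes. With plain totals 8 and 0 were, against 61.3% and 15.2%. With MLN0128 5 were higher than with vehicle and 0 lower (median 0.37), against 14.9% and 17.1% of all tested genes. With plain totals 8 were higher than with vehicle, against 23.1%. Twnk, the helicase that unwinds mitochondrial DNA, had 44.3, 39.7 and 31.8 FPKM with MLN0128 against 17.7, 14.5 and 17.3 FPKM with vehicle (difference 1.17, adjusted P = 0.00048). Twnk and Mrpl43 lie head to head and overlap, and Mrpl43 was lower with MLN0128 as deposited (-0.41, adjusted P = 0.047). With plain totals Mrpl43 stood at -0.27 and was not called. The polymerase Polrmt was higher in tumors than in normal livers (0.61, adjusted P = 0.0037), and the packaging factor Tfam was not called (0.07). With X and Y content as a term, which leaves MLN0128 replicate 3 alone, the median against vehicle was 0.22.

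Mitochondrial DNA holds 13 protein-coding genes, whose transcripts this ribosome translates. RNA of these genes was measured here, and their proteins were not. On the deposited scale all 13 transcripts were lower with vehicle than in normal liver (13 of 13 called, median -1.65). Their differences were negative under every scaling, with 8 called at plain totals (median -0.71) and 5 at equal sums (median -0.45). As deposited, 0 of 13 were called with MLN0128 against vehicle (median -0.24, with mt-Nd3 higher at plain totals or equal sums) or with everolimus (median -0.24). The label gives poly(A) capture or removal of ribosomal RNA for the libraries without saying which. Of 86 tested cytosolic ribosomal protein genes 59 were higher and 0 lower in tumors on the deposited scale (median 0.77). There 22 of 79 mitochondrial ones and 36.0% of all tested genes were higher. With plain totals the counts were 83 of 86 and 64 of 79, against 61.3% of all tested genes. The difference between the lists was not tested. The cytosolic genes took a share of reads of 2.11% to 2.28% in normal livers and 6.37% to 8.25% with vehicle. With MLN0128 1 was higher and 1 lower (median 0.12) as deposited, against 14.9% and 17.1% of all tested genes. With plain totals 10 and 0 were, against 23.1% and 12.7%. With equal sums 36 were higher and 0 lower (median 0.36), against 25.4% and 9.16%. X and Y content as a term, leaving MLN0128 replicate 3 alone, gave a median of -0.13. The lists were compared by counts only.

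**Figure D5:**
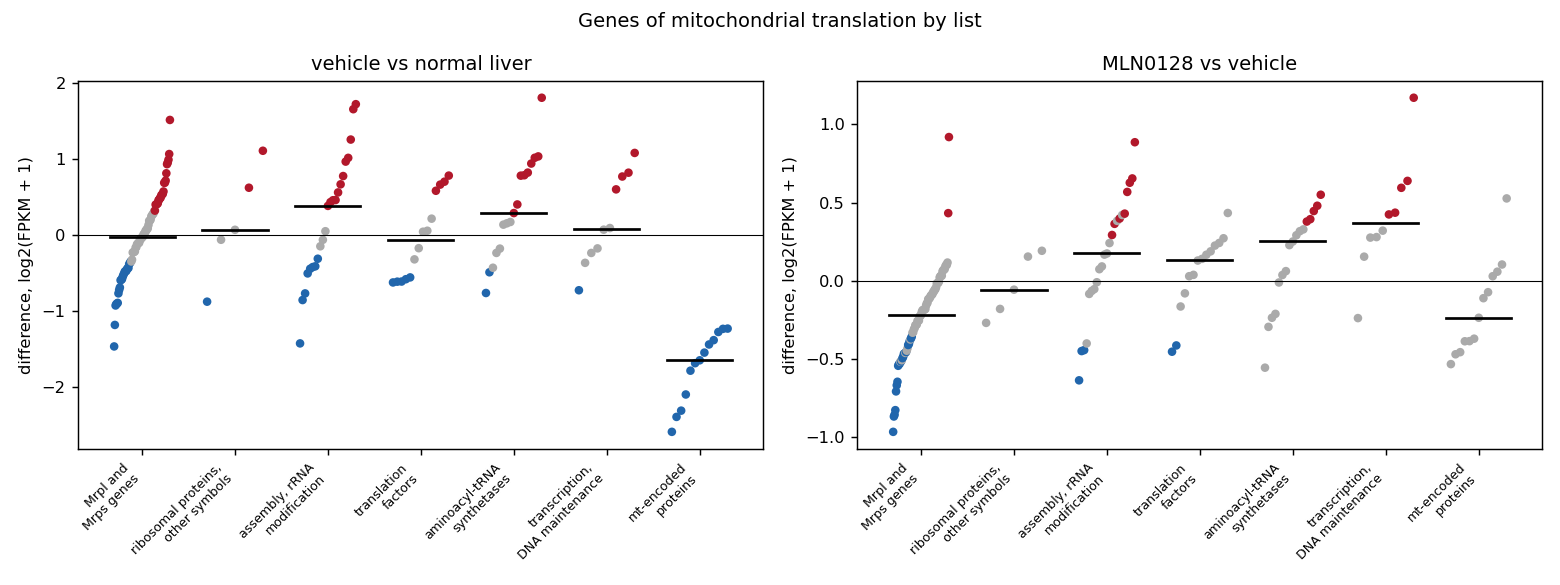
Differences on the log2(FPKM + 1) scale for the mitochondrial ribosomal protein genes and 6 lists of genes of mitochondrial translation, on the deposited scale, for vehicle-treated tumors against normal livers (left) and MLN0128 against vehicle (right). Each point is a gene, coloured red if higher and blue if lower (limma, adjusted P under 0.05), and black bars are medians. The mitochondrially encoded genes lie below 0 on the left, with a median of -1.65, and on the right the ribosomal protein genes have a median of -0.22 where transcription and DNA maintenance genes have 0.37.

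Several members share their start with a neighbor. A protein-coding gene on the other strand started within 1000 bases of 33 of 77 protein-coding members (42.9%), against 16.2% of 12212 tested protein-coding genes. Mrpl46 and Mrps11 form the only such pair of 2 members. They run in opposite directions from chr7:78783119-78783531 (GRCm38), where the genes overlap, and 12.2% of the exon bases of Mrpl46 are shared with Mrps11. Both were lower with MLN0128, as given above. Of all members, 25 overlap another protein-coding gene, and whether the libraries kept strand was not given in the sources used here.

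For 5 members, 250 bases upstream of the RefSeq start are given from RefSeq (GRCm38.p6), read 5′ to 3′ on the strand of the gene. These members are Mrpl24, called in 3 of the 4 comparisons, Mrpl14 and Mrps18c, the lowest in tumors as deposited, Mrpl16, the lowest with MLN0128, and Mrps11. The Mrps11 window lies inside the gene Mrpl46, and the bases before the start of Mrpl46 are not shown. Capitals mark matches on either strand to any of the motifs named in the next paragraph. They cover chr3:87919294-87919543 for Mrpl24, chr17:45686099-45686348 for Mrpl14, chr5:100798509-100798758 for Mrps18c, chr19:11770165-11770414 for Mrpl16 and chr7:78782881-78783130 for Mrps11, all on the plus strand.
Mrpl24: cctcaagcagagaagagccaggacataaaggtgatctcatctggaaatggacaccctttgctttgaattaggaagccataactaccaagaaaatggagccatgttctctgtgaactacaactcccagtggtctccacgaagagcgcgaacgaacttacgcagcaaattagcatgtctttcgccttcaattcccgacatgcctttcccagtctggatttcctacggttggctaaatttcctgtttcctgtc
Mrpl14: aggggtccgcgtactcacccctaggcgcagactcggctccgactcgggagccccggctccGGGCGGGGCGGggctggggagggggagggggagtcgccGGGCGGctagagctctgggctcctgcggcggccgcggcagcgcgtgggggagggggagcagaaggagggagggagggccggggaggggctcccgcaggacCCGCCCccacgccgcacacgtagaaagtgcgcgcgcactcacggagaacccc
Mrps18c: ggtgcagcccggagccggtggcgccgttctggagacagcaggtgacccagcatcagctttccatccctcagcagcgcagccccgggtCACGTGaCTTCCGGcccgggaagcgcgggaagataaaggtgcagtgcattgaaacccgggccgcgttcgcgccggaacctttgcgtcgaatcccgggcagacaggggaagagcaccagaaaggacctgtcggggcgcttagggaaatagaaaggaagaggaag
Mrpl16: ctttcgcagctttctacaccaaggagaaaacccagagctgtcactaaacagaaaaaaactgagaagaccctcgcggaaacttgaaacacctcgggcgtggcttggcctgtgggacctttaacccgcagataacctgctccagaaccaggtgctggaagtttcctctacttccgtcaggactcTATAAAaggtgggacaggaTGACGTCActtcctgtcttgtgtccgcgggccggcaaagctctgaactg
Mrps11: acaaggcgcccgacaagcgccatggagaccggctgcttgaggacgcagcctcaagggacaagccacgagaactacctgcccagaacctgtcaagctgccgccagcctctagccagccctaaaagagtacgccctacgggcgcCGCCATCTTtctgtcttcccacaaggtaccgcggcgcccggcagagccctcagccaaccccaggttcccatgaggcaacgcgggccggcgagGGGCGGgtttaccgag
In Mrpl24 no motif matched. Mrpl14 held 4 matches, all to the GC box, Mrps18c an E-box beside an ETS core, Mrpl16 a TATA box and a CRE, and Mrps11 a YY1 core and a GC box.

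Promoters of 250 bases before to 50 after the start were found for 68 of 79 members and for 10217 tested genes in all, and were searched on both strands for 8 motifs by exact letters. The E-box CACGTG, the site bound by MYC with MAX, was in 5 of 68 members (7.35%, Mrpl2, Mrpl20, Mrpl36, Mrpl37 and Mrps18c) and in 11.8% of all. The ETS core CCGGAAG was in 25 members (36.8%) and 19.6% of all. The YY1 core AAGATGGCG was in 8 members (11.8%) and 3.54% of all, and the NRF1 core GCGCATGC, named for a regulator of nuclear genes for mitochondria, in 8 members (11.8%) and 5.82% of all. The GC box GGGCGG was in 34 members (50%) and 65.8% of all, CCAAT in 26 (38.2%) and 42.7%, the TATA box TATAAA in 5 (7.35%) and 9.59%, and the CRE TGACGTCA in 2 (2.94%) and 3.49%. These shares describe letters in these windows and say nothing of binding.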

How the data were processed

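The deposited values were FPKM that the authors computed from libraries sequenced by Novogene, after counting reads per Ensembl gene and converting genes to Entrez identifiers. They are linear and rounded to 3 significant digits. The submitters' notes name GRCm38 and FastQC 0.11.7, and the aligner was not given in the sources used here. Members and lists were chosen with earlier results of these data known, and classes of subunit and ancestry were written from textbook knowledge. Positions and exon lengths came from GENCODE M21 (GRCm38), in which 16864 symbols were found once. FPKM times exon length fell on whole reads, within 0.1 read, for 98.2% to 98.8% of low values, where chance gives 20%, and these reads gave depths and shares. Intervals of counting error were not computed for shares of reads.

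All 12 libraries entered 1 linear model on log2(FPKM + 1) in limma 3.58.1 (R 4.3.3, intensity trend, 8 residual degrees of freedom), with adjustment over all 14397 genes; treat used a fold change of 1.5. The authors had used edgeR's glmTreat on counts. As samples are named only by replicate numbers and separate mice are not stated, P values measure the spread between these samples. An exact permutation test of 3 against 3 libraries cannot go below P = 0.1. Named members were the 6 highest and 6 lowest of each comparison, the 5 highest and 5 lowest by mean level, the stalk, the S18 family, Mrps12, Mrps36 and Mrpl58; Mrps11 and Mrpl43 were added after their values were seen. Lists give at most 3 genes at each end, besides those that build the ribosome and Tfam and Polrmt. As alternatives, a pseudocount of 0.1, other filters and scalings, no trend, only 2 groups, a replicate block, X and Y content, voom and each library left out were run. Same-numbered libraries of different groups had deviations that correlated from -0.29 to 0.15, so the numbers were not taken as pairs. The tests were tried on simulated data. Tables and figures were made with pandas 2.3.3 and matplotlib 3.10.9.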

Additional observations from a re-analysis of the deposited data

Results flagged for a closer look

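The 5 members for which the effect of MLN0128 differed from that of everolimus by the direct test were Mrpl34 (difference between the drugs -0.85), Mrpl16 (-0.58), Mrpl46 (-0.56), Mrpl55 (-0.55) and Mrps27 (-0.51), all on the log2(FPKM + 1) scale and all lower with MLN0128 in 3 of 3 libraries. Over 23 alternatives the call was kept by Mrpl34 in 22, by Mrpl55 in 17, by Mrpl46 in 15, by Mrpl16 in 14 and by Mrps27 in 6. With only the libraries of both drugs in the model none of the 5 was called by limma, Mrpl34 having an adjusted P of 0.074. The alternatives include X and Y content as a term, where the MLN0128 estimate rests on replicate 3 alone. With equal FPKM sums, or without MLN0128 replicate 1, everolimus replicate 1 or everolimus replicate 3, Mrpl34 was the 1 of the 5 still called. Groups of 3 libraries are too small for a check of single outlying libraries.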

How the results depend on the processing

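For tumors against normal livers the scaling decided the counts. Plain library totals gave 64 members higher and 1 lower (61.3% and 15.2% of all tested genes), with 36 past 1.5-fold (median 0.84). Equal FPKM sums gave 71 and 0 (66.0% and 11.7% of all tested genes), with 51 past 1.5-fold (median 1.06). With plain totals 6 named members changed sign: Mrpl58 (0.51), Mrpl48 (0.31), Mrpl33 (0.29), Mrpl27 (0.033), Mrpl41 (0.020) and Mrpl48-ps (0.0033). For MLN0128 against vehicle, plain totals gave 13 lower (12.7% of all tested genes were) and 1 past 1.5-fold. Equal sums gave 6 lower (9.16% of all tested genes were) and 1 past 1.5-fold (median 0.0022). X and Y content as a term leaves MLN0128 replicate 3 alone and gave a median of -0.32. With everolimus, plain totals gave 2 higher and 1 lower (4.95% and 5.73% of all tested genes), and equal sums 1 lower (4.25%). For MLN0128 against everolimus, no filter, plain totals, equal sums, equal medians and voom each gave 1 higher. There, plain totals gave 2 lower (2.80% of all tested genes) and equal sums 1 (1.49%, median -0.019). Only the 2 groups compared gave 0 lower and voom 8. With X and Y content the median there was -0.29.

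With the replicate block, members higher with MLN0128 against vehicle numbered 1 and those lower against everolimus 2; the numbers share no stated pairing, and other counts stayed within 1.5 times.

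Leaving out each library gave 17 to 23 higher, 18 to 24 lower and 4 to 8 past 1.5-fold (median -0.07 to 0.02) for tumors against normal livers, with 4 without normal liver replicate 3 and 5 without vehicle replicate 2 or 3. It gave 1 to 2 higher, 6 to 22 lower and 0 to 1 past 1.5-fold (median -0.29 to -0.17) for MLN0128 against vehicle. For everolimus against vehicle it gave 1 higher throughout, 0 to 1 lower and 0 past 1.5-fold (median -0.04 to 0.10). For MLN0128 against everolimus it gave 0 to 1 higher, 1 to 11 lower and 0 past 1.5-fold (median -0.34 to -0.19). The causes were not tested. Over 39 results for single members, 572 of 663 values kept direction and call, 85 lost the call and 6 reversed. These values cover a pseudocount of 0.1, no filter, plain totals, the replicate block, X and Y content and each library left out. Equal FPKM sums, equal medians, only 2 groups, voom, no trend and the stricter filter were not among them. The 2 pseudogenes, at under 1.5 FPKM and down to 4 reads in a library, are the members that depth limits most.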
